A study of Mus musculus with 4 samples.

Results

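Class 11 is a cluster of adult mammary luminal nuclei in the deposited single-nucleus ATAC-seq table, set apart from its nearest neighbour, class 2, by a low share of reads at promoters. Its members were all nuclei that the authors' own cluster column numbers 11 in the 2 adult libraries, which gave 557 of the 7846 nuclei of the series. ATAC-seq marks open chromatin by the cuts of the Tn5 transposase, and here each nucleus is known by a combination of barcodes. The nuclei came from EpCAM+ and Lin- sorted cells of the mammary gland of wild-type CD1 mice, an outbred strain, taken from fetuses at E18 or from adults at 8 weeks, with 2 libraries per stage that the labels call biological replicates. No genotype or treatment differs between the libraries, and the labels do not say how many animals went into each. EpCAM is a surface protein of epithelial cells, luminal and basal.

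Mature luminal cells, also called hormone-sensing cells, carry the receptors for oestrogen (Esr1), progesterone (Pgr) and prolactin (Prlr). They answer ovarian hormones by releasing signals to their neighbours, among them amphiregulin (Areg), a ligand of the EGF receptor, and RANKL (Tnfsf11), which acts on luminal progenitors. Foxa1 is a forkhead factor that opens chromatin for the oestrogen receptor, and AP-1 is the family of Fos and Jun dimers.

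Adult replicate 1 held 197 class 11 nuclei, or 7.99% of its 2465 nuclei, with an exact binomial 95% interval of 6.95% to 9.13%. Adult replicate 2 held 360, or 12.8% of its 2804 nuclei, with an interval of 11.6% to 14.1%. These intervals, like all given here, cover counting error only. The mean share was 10.4% ± 3.4 (SD, n = 2). Among the nuclei of classes 2 and 11 together, class 11 made up 19.7% in replicate 1 and 33.5% in replicate 2, so the balance between the 2 classes differed between the libraries beyond counting error. Class 2 itself held 805 and 714 nuclei. The fetal libraries had 2 and 5 class 11 nuclei, a mean share of 0.261% ± 0.0481 (SD, n = 2), and they entered no comparison.

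Class 11 nuclei were deeper than class 2 nuclei. Their summed reads came to 1313769 in replicate 1 and 3219124 in replicate 2, against 4430401 and 4962859 for class 2. The median was 5490 reads per nucleus in replicate 1 and 7675.5 in replicate 2, against 4423 and 5666.5 in class 2. Over all 4 libraries, 6028168 to 19304830 reads fell in listed nuclei, and no barcode was shared between libraries. Class 11 nuclei were found under every value of each of the 4 parts of the barcode in both adult libraries. Each value held at least 20 nuclei, so presence alone says little on evenness. Across the 32 values of part 4 the class 11 share ran from 1.45% to 14.6% in replicate 1 and from 5.95% to 24.2% in replicate 2, and this spread was not tested. Because the authors made the clusters from the accessibility of these same nuclei, a difference between clusters is a description here and carries no p-value. A difference was counted where it passed a set size in the same direction in both adult libraries.

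Sequences of 250 bases upstream of the RefSeq start site show how unlike the promoters discussed here are. Areg, Rptn and Gstm3 were given as markers of the class, Tnfsf11 is the hormone target with the largest ratio to class 2, and Rpl23, Cops8 and Mllt6 had the promoters furthest below class 2. Capitals mark exact matches, on either strand, to any of 10 short strings that factors are known to prefer. A RefSeq window of 300 bases was matched to 9582 of the 19204 deposited promoter regions, and the share of those windows that hold each string gives its background. The string of SP and KLF factors, GGGCGG, stood in 65.5% of them, and that of ETS factors, CCGGAA, in 26.0%. NFY was searched as GATTGG and found in 20.8%, RUNX as TGTGGT in 12.1%, and TEAD as GGAATG in 11.7%. The NFI string TTGGCA and the nuclear receptor string AGGTCA were each in 11.5%. GATA, as AGATAA, was in 6.02%, AP-1, as TGAGTCA, in 4.12%, and forkhead, as TGTTTAC, in 2.59%. Overlapping matches were all kept, a match is a run of letters and no more, and all sequences are from RefSeq on GRCm38.p6.
Areg promoter, chr5:91139349-91139598, strand +: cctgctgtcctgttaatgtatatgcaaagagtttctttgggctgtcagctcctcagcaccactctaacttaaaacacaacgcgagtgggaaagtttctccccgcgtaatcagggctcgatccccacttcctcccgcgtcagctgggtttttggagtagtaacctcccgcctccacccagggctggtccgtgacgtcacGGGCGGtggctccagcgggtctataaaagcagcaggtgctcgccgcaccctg
Rptn promoter, chr3:93393449-93393698, strand +: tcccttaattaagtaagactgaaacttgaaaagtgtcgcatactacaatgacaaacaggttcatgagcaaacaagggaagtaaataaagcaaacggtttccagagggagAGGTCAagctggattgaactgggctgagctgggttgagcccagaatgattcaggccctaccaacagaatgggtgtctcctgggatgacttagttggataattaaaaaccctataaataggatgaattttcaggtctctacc
Gstm3 promoter, chr3:107969175-107969424, strand -: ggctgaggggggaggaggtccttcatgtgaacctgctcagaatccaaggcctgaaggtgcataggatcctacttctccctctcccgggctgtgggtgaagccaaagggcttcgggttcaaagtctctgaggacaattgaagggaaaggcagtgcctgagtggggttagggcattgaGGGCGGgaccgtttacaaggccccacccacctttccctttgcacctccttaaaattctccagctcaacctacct
Tnfsf11 promoter, chr14:78308044-78308293, strand -: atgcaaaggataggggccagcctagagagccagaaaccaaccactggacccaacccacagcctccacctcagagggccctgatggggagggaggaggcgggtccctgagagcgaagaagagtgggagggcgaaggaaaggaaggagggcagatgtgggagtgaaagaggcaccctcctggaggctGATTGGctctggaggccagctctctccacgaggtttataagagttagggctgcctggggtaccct
Rpl23 promoter, chr11:97782440-97782689, strand -: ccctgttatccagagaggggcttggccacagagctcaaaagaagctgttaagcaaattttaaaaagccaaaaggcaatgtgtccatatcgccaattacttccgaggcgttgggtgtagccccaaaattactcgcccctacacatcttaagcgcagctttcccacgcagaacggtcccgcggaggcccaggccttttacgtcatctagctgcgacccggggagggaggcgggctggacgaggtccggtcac
Cops8 promoter, chr1:90603175-90603424, strand +: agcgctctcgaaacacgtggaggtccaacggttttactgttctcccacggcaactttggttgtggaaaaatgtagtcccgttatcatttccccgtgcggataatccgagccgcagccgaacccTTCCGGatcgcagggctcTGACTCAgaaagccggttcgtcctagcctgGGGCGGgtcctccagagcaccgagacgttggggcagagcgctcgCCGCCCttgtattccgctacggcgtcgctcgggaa
Mllt6 promoter, chr11:97663162-97663411, strand +: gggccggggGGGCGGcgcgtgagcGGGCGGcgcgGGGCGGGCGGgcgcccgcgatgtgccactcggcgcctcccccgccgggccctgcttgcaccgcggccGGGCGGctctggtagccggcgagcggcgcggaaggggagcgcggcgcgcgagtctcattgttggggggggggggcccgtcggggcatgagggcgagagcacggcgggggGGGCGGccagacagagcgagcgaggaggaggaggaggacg
The upstream sequences of Rptn, Gstm3 and Tnfsf11 held 2, 4 and 4 CpG dinucleotides, while those of Areg, Rpl23, Cops8 and Mllt6 held 15, 15, 26 and 40. Each of the 3 marker promoters printed held 1 string: an SP/KLF string 52 bases upstream of the start in Areg, a nuclear receptor string 141 bases upstream in Rptn, and an SP/KLF string 74 bases upstream in Gstm3. The fourth marker promoter, that of Cyp3a57, which is not printed, held 4 strings and 0 CpG. Tnfsf11 held an NFY string 65 bases upstream. Cops8 held 4 strings and Mllt6 held 6, the latter all SP/KLF, and none of the 10 was found in Rpl23.

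The low promoter share was seen in both adult libraries. Of the reads of a class 11 nucleus, a median of 21.2% overlapped a promoter region in replicate 1 and 18.1% in replicate 2, which gave 19.6% ± 2.17 (SD, n = 2). Class 2 stood at 25.7% and 23.2%, or 24.5% ± 1.74 (SD, n = 2). Class 11 minus class 2 within a library was -4.53 and -5.13 percentage points, a mean of -4.83 ± 0.426 (SD, n = 2). That difference was larger than its spread between the libraries, although the class 11 level of replicate 1 was close to the class 2 level of replicate 2. The distributions overlapped: 84.8% and 85.3% of class 11 nuclei lay below the class 2 median of their library, and 7.11% and 5.0% lay above the class 2 upper quartile.

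**Figure D1:**
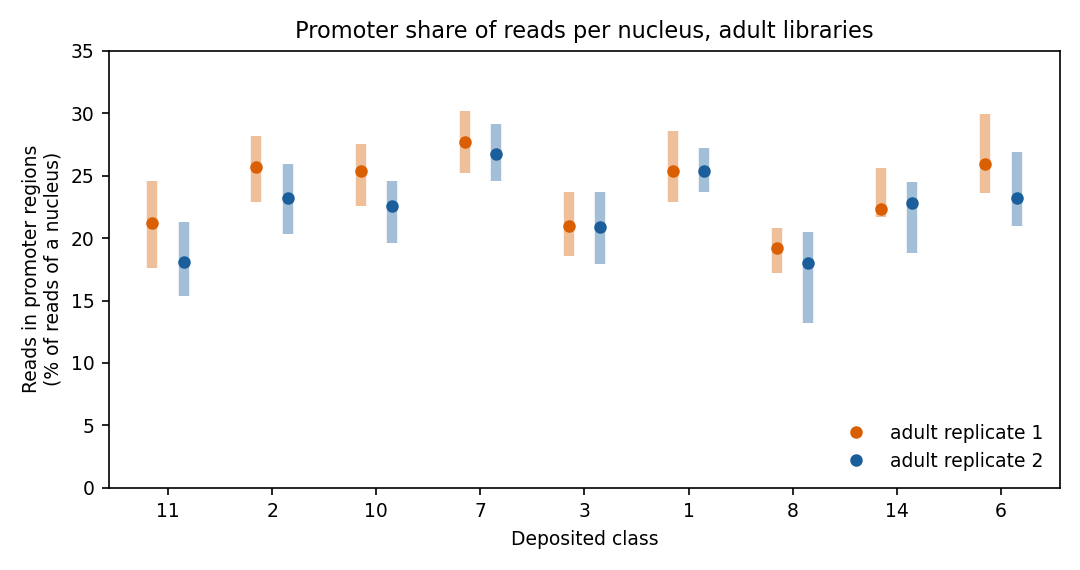
Share of reads in promoter regions per nucleus, in percent, for each adult class of at least 25 nuclei in each library, with points for the median and bars from the lower to the upper quartile, by library. Class 11 has medians of 21.2% and 18.1%, below class 2 at 25.7% and 23.2%, and close to classes 3 and 8.

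The promoter gap was also seen at matched depth. With every nucleus thinned to 2000 reads it was -4.74 ± 0.336 percentage points (SD, n = 2). Random thinning does not change the expected share of a nucleus, so the bins of depth bear on this instead. In 4 bins of depth, class 11 medians ran from 20.9% to 22.7% in replicate 1 and from 17.0% to 19.4% in replicate 2. Class 2 ran from 25.0% to 26.5% and from 22.0% to 23.7% in the same bins. Class 11 lay below class 2 in every bin of its own library. Counted per nucleus, the median number of promoter reads was 1121 and 1342 in class 11, against 1128 and 1276 in class 2. The 2 classes thus had nearly equal promoter reads per nucleus, while class 11 nuclei had a median of 1070 and 2010 more reads in all.

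The distal share was lower in class 11 as well, and the share of reads in neither list was higher. Distal regions, the authors' list of 145453 windows of 1000 bases away from promoters, took 41.9% and 40.2% of the reads of a class 11 nucleus and 43.2% and 42.7% in class 2, a difference of -1.93 ± 0.84 points (SD, n = 2). Reads in neither list were 35.8% and 39.9% in class 11 and 30.8% and 33.5% in class 2, a difference of 5.65 ± 0.965 points (SD, n = 2).

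Around annotated start sites the reads of both classes peaked at the start, and the class 11 peak was lower. Of all class 11 reads, 6.87% and 6.0% had their midpoint within 100 bases of a start, against 9.09% and 8.18% in class 2. The level at the centre was 23.4 and 22.2 times that of the flank from 2000 to 3000 bases away in class 11, and 31.6 and 29.4 times in class 2. The flank itself differed little, with 2.94% and 2.7% of reads against 2.88% and 2.79%. Chromosome 18 is not in this profile.

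**Figure D2:**
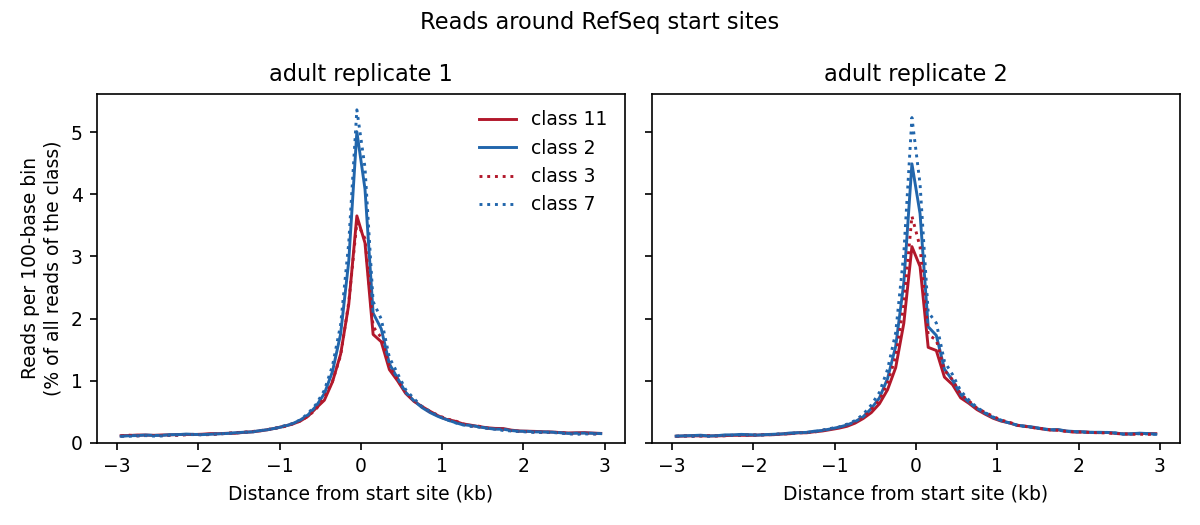
Reads per 100-base bin, in percent of all reads of the class, by distance from RefSeq start sites in kb, for class 11 (solid red), class 2 (solid blue), class 3 (dotted red) and class 7 (dotted blue), with 1 panel per adult library. The class 11 peak is lower than that of class 2 in both libraries and the flanks lie together.

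Other adult classes had a low promoter share too. Among the classes with many reads over Kit, a luminal progenitor marker, class 3 had a mean of 20.9% ± 0.0907 against 27.2% ± 0.738 in class 7, a difference of -6.24 ± 0.647 points (SD, n = 2). Among those with many reads over the basal keratin gene Krt5, class 8 had 18.6% ± 0.878 against 25.4% ± 0.0465 in class 1, a difference of -6.83 ± 0.924 points (SD, n = 2). Class 11 had the smallest of these 3 gaps, which are all measured in the same 2 libraries. Classes 3 and 8 were also deeper than their neighbours, by medians of 1270 ± 161 and 825 ± 236 reads (SD, n = 2), as class 11 was by 1540 ± 666 (SD, n = 2).

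By its markers, class 11 was mature luminal. Markers were read over gene spans, that is, reads over the gene and 2000 bases on either side. Values are in CPM, the read count scaled to 1000000 reads of the class. This is no independent check of the label, since the clusters come from these same nuclei and Areg was given as a marker of the class. Ratios are log2 of CPM plus 1 over CPM plus 1, which understates the change of low spans. A span counted as higher or lower at 1.5-fold in both libraries. Against all other adult nuclei, 627 of 17200 spans were higher (3.65%) and 796 were lower (4.63%). Scaled by TMM (trimmed mean of M-values), the split was 874 higher and 617 lower. Of the 12 mature luminal markers 4 were higher and none lower: Pgr, Tnfsf11, Areg and Spdef, an ETS factor of secretory epithelium. Their median log2 ratio was 0.53, against -0.09 over all spans tested. Of the 9 luminal progenitor markers tested, 6 were lower, with a median of -1.36, among them Elf5, the ETS factor of alveolar progenitors, Kit, a stem cell factor receptor, and the milk protein gene Csn3. Of the 10 basal markers 7 were lower, with a median of -1.01, among them the keratins Krt5 and Krt14, smooth muscle actin Acta2 and the p53 relative Trp63. With TMM scaling, Myh11 left that count and 6 of 10 basal markers stayed lower.

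The levels show the scale of these differences. Krt5 had 0 and 8 reads in class 11, or 0.0 and 2.49 CPM, against 70.3 and 69.8 CPM in basal class 1. Kit had 9.9 and 10.9 CPM in class 11 against 146 and 156 CPM in class 7. None of the 7 pan-luminal markers passed 1.5-fold against class 2: Krt8, the luminal keratin, had 115 and 96.6 CPM against 147 and 128 CPM, and all 7 lay below 0 in both libraries, as did 44.1% of all spans tested. Stromal, immune and endothelial markers were summed to 170 and 144, 77.6 and 64.6, and 152 and 106 CPM in class 11, against 165 and 190, 83.7 and 75.6, and 104 and 92.7 CPM in class 2. Basal markers were summed to 230.0 and 208.0 CPM in class 11 against 181.0 and 174.0 CPM in class 2; none of the 7 tested passed 1.5-fold, and their median was 0.47, with 5 above 0 in both libraries, where 24% of all spans were; with TMM scaling it was 0.58, with 6 above 0. Among the stromal, immune and endothelial genes, Col1a2 and Col3a1, collagen genes of fibroblasts, and Tek, an endothelial receptor, were higher in class 11 than in class 2 by the 1.5-fold rule, which 4.09% of all spans tested passed, with a median of -0.12 over all. The collagen genes had 7.61 to 10.9 CPM in class 11, and Lum, a matrix gene of fibroblasts, had 0 reads in both libraries. The median log2 ratio to class 2 was 0.48 over the 7 stromal, 0.26 over the 4 endothelial and -0.13 over the 5 immune markers tested. TMM scaling made them 0.60, 0.37 and -0.03, with 5 of the 7 stromal markers above 0 in both libraries, and added the endothelial cadherin gene Cdh5 (1.02 and 0.73) to those higher. The other 2 stromal markers, the collagen genes Col1a1 (-0.35 and -0.42) and Col6a3 (-0.40 and -0.80), lay below 0 in both, as did the endothelial marker Pecam1 (-0.03 and -0.34). Whether nuclei of other cell types add to the class was not tested.

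Of the 4 marker genes, 3 were higher in class 11 than in all other adult nuclei, and none passed the rule against class 2. All 4 were given beforehand as markers of the class, so the 3 that were higher are no independent result. Areg, on chr5:91139599-91148432, had 72.3 and 81.1 CPM in class 11, 83.1 and 82.8 CPM in class 2 and 62.3 and 38.4 CPM in class 10. In classes 1, 3, 7 and 8 it lay between 6.78 and 15.2 CPM, and in the small class 14 it had 107 and 30.7 CPM. Class 11 and class 2 did not differ beyond their spread, with a log2 ratio of -0.11 ± 0.12 (SD, n = 2). After thinning to 2000 reads, 12.2% and 9.72% of class 11 nuclei had a read over Areg. In class 7, whose Areg CPM was already low, 1.93% and 1.95% of nuclei did.

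Rptn, the gene of the cornified envelope protein repetin on chr3:93393699-93399442, had 20.6 and 16.5 CPM in class 11 and 11.7 and 15.1 CPM in class 2. It had no read in either library in classes 7 and 8. Against class 2 the log2 ratios were 0.76 and 0.12, so only replicate 1 passed 1.5-fold. Gstm3, a glutathione transferase gene on chr3:107963696-107969174, had 13.7 and 28.0 CPM in class 11, a wider gap between libraries than in class 2 at 18.5 and 18.7 CPM. It missed the rule against all other adult nuclei with 0.49 and 1.74. Reads from near-identical members of this family and of the Cyp3a family may be split between copies, since the counting of repeats was not given in the sources used here.

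Cyp3a57, a cytochrome P450 gene on chr5:145345149-145390926, had 43.4 and 45.4 CPM in class 11 and 61.6 and 66.3 CPM in class 2. Its log2 ratio to class 2 was -0.52 ± 0.029 (SD, n = 2), which did not pass the 1.5-fold rule. The promoter region of Cyp3a57, on few reads, had the other sign, with log2 ratios of 0.42 and 0.24 from 8 and 29 reads in class 11 and 19 and 37 in class 2. Class 10 had 37.6 and 41.3 CPM, and classes 1 and 7 had at most 3.8 CPM. Of the 8 genes listed for its cluster on the chromosome, 6 could be tested against all other adult nuclei. Cyp3a57 was the member that was higher, where 3.65% of all spans were, but it had been given as a marker, so this is no independent result. TMM scaling added Cyp3a16.

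**Figure D3:**
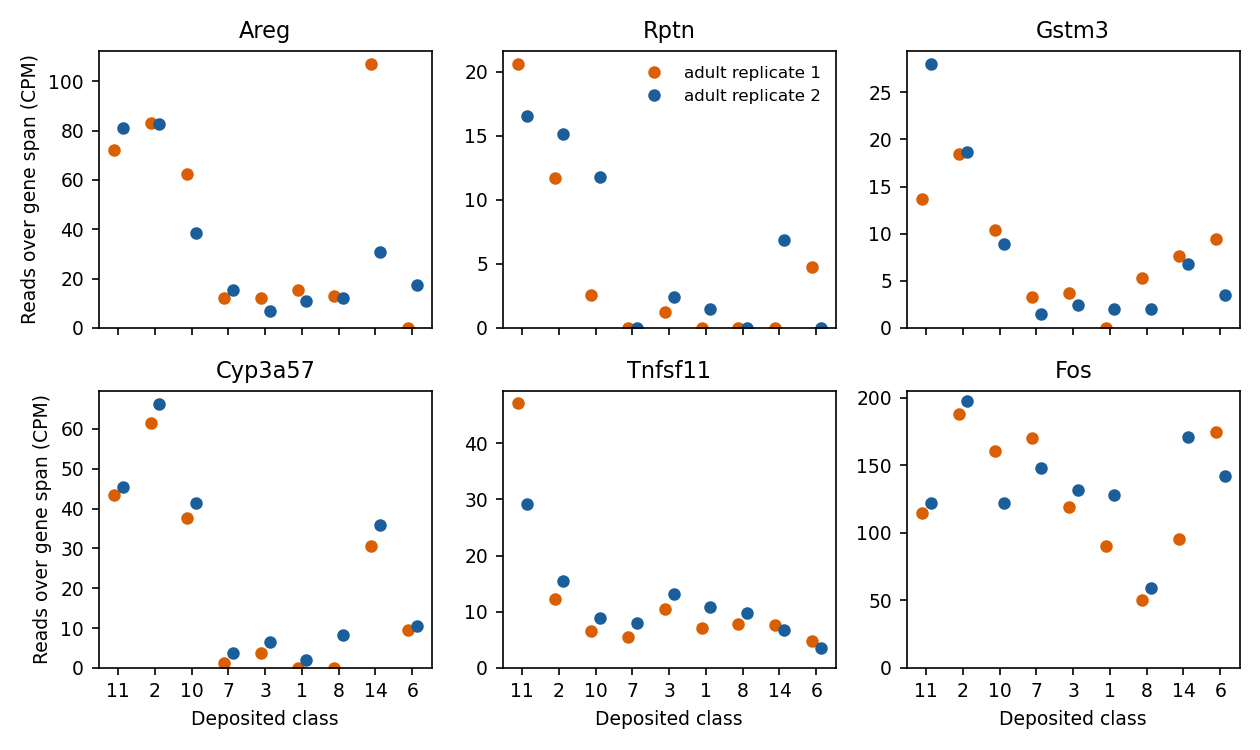
Reads over gene spans in CPM, by adult class and library, for the 4 marker genes and for Tnfsf11 and Fos; the vertical scale differs between panels and starts at 0. Areg is at a similar level in classes 11 and 2, Cyp3a57 is at 43.4 and 45.4 CPM in class 11 and 61.6 and 66.3 CPM in class 2, a difference short of 1.5-fold, Rptn and Gstm3 vary between libraries, Tnfsf11 is highest in class 11, and Fos is lower in class 11 than in class 2.

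In the authors' deposited co-accessibility scores, which pool all nuclei of both stages, the Areg promoter had 8 partners at a score of 0.25 or more. Its highest score, 0.378, was to the distal region chr5:91149461-91150460, 10.4 kb away. That region had 17.5 and 12.7 CPM in class 11 and 17.8 and 10.1 CPM in class 2, and 0.0 and 0.759 CPM in class 7. The Gstm3, Rptn and Cyp3a57 promoters had 6, 2 and 3 such partners, with top scores of 0.499, 0.387 and 0.32. For Pgr there were 5, and Esr1 and Tnfsf11 had none at that score. The Areg partner was thus open in class 2 as well as in class 11.

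Tnfsf11 was the 1 hormone target of the list past the rule against class 2. Its span on chr14:78277446-78308043 had 62 and 94 reads, or 47.2 and 29.2 CPM, in class 11, against 54 and 77 reads, or 12.2 and 15.5 CPM, in class 2. No class but 2 and 11 reached more than 13.2 CPM in either library, so both class 11 values stand above those of the other 7 classes compared. The log2 ratio to class 2 was 1.87 and 0.87, a mean of 1.37 ± 0.71 (SD, n = 2). The span was also past 1.5-fold in class 3 over class 7, with 0.80 and 0.66, and gave 0.15 and -0.14 in class 8 over class 1. Its promoter region gave 8 and 18 reads against 2 and 14, too few to weigh. Thinned to 2000 reads, 8.12% and 3.61% of class 11 nuclei had a read there, against 1.74% and 2.66% in class 2 and 0.741% and 1.73% in class 7.

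The receptors themselves did not separate the classes. Esr1 had 196 and 236 CPM in class 11 and 216 and 243 CPM in class 2. Pgr had 174 and 159 CPM against 193 and 207 CPM, and Prlr had 222 and 176 CPM against 225 and 228 CPM. All 3 lay below class 2 in both libraries by less than 1.5-fold; with TMM scaling Pgr stayed below, at -0.08 and -0.24, while Esr1 (-0.06 and 0.10) and Prlr (0.06 and -0.23) had both signs. Ly6a, a surface marker of mature luminal cells, was the 1 member of the mature luminal list lower than in class 2, with -0.86 and -0.67, and it missed the rule under TMM with -0.81 and -0.54. Of the 14 hormone receptors and targets, Tnfsf11 alone was higher than in class 2 and none was lower, with a median of -0.25, where 643 of 15715 spans were higher (4.09%) and 568 lower (3.61%) and the median was -0.12. Under TMM the median of the list was -0.14 and the background split became 969 higher and 285 lower, since that scaling moved the median of all spans by 0.11. Against all other adult nuclei, Pgr, Areg and Tnfsf11 were higher. Of 9 cofactors of nuclear receptors, Med1, a Mediator subunit, was lower than in class 2 with log2 ratios of -0.73 and -0.81, and none was higher. The 14 forkhead, GATA, TBX and SPDEF factor genes had none past the rule, with a median of -0.08 that became 0.03 with TMM.

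Early response genes were among the spans below class 2. Fos had 115 and 122 CPM in class 11 against 188 and 198 CPM in class 2, and Jun had 183 and 175 CPM against 275 and 265 CPM. In neither gene did the class 11 libraries overlap those of class 2, and the share of all spans that do so is not given here. The log2 ratio was -0.70 ± 0.0094 for Fos and -0.59 ± 0.0043 for Jun (SD, n = 2). Both were the members of the 13 AP-1 genes that were lower, and 11 of the 13 lay below 0 in both libraries, with a median of -0.37. Over all spans tested 3.61% were lower and 44.1% lay below 0 in both libraries. With TMM scaling Fos moved to -0.63 and -0.55 and Jun to -0.51 and -0.45, so neither passed 1.5-fold and 9 of 13 stayed below 0. Of 16 immediate early and stress genes, 3 were lower than in class 2: Zfp36, which marks mRNAs for decay, the zinc finger factor gene Klf2, and the heat shock gene Hspa1a, with a median of -0.44 over the list. With TMM scaling Hspa1a stayed lower and 13 of 16 lay below 0, as they did without it. Housekeeping genes did the same: 12 of 16 lay below 0 in both libraries with a median of -0.40. So the early response genes were not told apart from housekeeping genes by their medians.

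Neuregulin genes, which encode ErbB ligands, differed among themselves. Nrg1 had 167 and 186 CPM in class 11 against 97.5 and 112 CPM in class 2, and Nrg3 had 89.1 and 167 CPM against 53.7 and 95.5 CPM. Nrg4 had log2 ratios of -0.18 and -0.99, short of the rule. Nrg1 and Nrg3 were the 2 of 15 ErbB receptors and ligands that were higher than in class 2, and none was lower, where 4.09% of all spans were higher and 3.61% lower. Both genes are over 1000 kb long, and of all spans of 200 kb and over 19.4% were higher; TMM scaling added the receptor gene Erbb4. Class 1 had 546 and 658 CPM over Nrg1, so class 11 was not the class where it was highest.

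Spans higher in class 11 than in class 2 were long and sparse. The 643 higher spans had a median length of 83.8 kb, against 25.6 kb over all tested and 10.8 kb over the 568 lower. Their median density was 0.13 CPM per kb in class 2 and 0.261 in class 11, whereas the lower spans had 2.66 and 1.49 CPM per kb, and all tested spans had 1.08 and 0.998. The class 11 difference thus ran with length across all spans. Spans under 5 kb had a median log2 ratio of -0.21 in replicate 1 and -0.28 in replicate 2, and spans of 200 kb and over had 0.34 and 0.32. Of the longest group 19.4% were higher, and of the shortest 1.87%. A constant scaling such as TMM moves all groups together and leaves this spread.

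The same spans tended to stand out in the other promoter-poor classes. Of the 535 higher spans that could be tested in class 3 against class 7, 42.6% were higher there and 0.0% lower, against 5.73% and 4.9% of all spans tested. In class 8 against class 1, 37.6% of 449 were higher, against 4.07%. Of the lower spans, 19.1% were lower in class 3 against class 7 (4.9% of all) and 18.3% in class 8 against class 1 (10.5% of all). The 3 pairs have no nucleus in common but come from the same 2 libraries.

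The 10 highest against class 2 were Bhlhe22, Kcnc2, Tshz3, Gabra2, Wnk3, Tmem47, Irs4, Abca15, Prdm6 and Mgat4c. Kcnc2, a potassium channel gene of fast-spiking neurons on chr10:112269898-112466304, had 42 and 164 reads in class 11 and 44 and 81 in class 2, with log2 ratios of 1.59 and 1.58. Gabra2, a GABA receptor subunit gene on chr5:70958392-71095849, had 40 and 97 reads against 31 and 70, with ratios of 1.98 and 1.04. Mgat4c, a glycosyltransferase gene on chr10:101681487-102391851, had 133 and 491 reads against 166 and 268, with ratios of 1.41 and 1.48. In class 3 against class 7 the same 3 spans gave 1.04 and 0.86, 1.57 and 0.70, and 0.79 and 1.06, and in class 8 against class 1 they gave 0.61 and 3.20, 3.52 and 1.94, and 0.98 and 2.12. Not all of the 10 went the same way. In class 3 over class 7 Irs4 gave -0.54 and 0.96, where the median over all spans tested was -0.13 and -0.14. In class 8 over class 1 Tshz3 gave -2.20 and -0.37, where that median was -0.21 and -0.35. Bhlhe22, a neural bHLH factor gene, and Irs4, an insulin receptor substrate gene, are shorter than the median tested span.

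Among the 10 lowest against class 2 were Fibp, Psmc3ip, Rpl23, Rpa2, Imp3, Milr1, Faap24, Ces3b and Lars2. In replicate 1 all of these but Lars2 rested on 0 to 9 class 11 reads each. Fibp, named because its ratio was the lowest, had 0 and 14 reads in class 11 against 59 and 50 in class 2. The pooled ratio was 0.266 with a 95% counting interval of 0.141 to 0.466. Such intervals take reads as independent, but both ends of a fragment are listed as separate reads, so they are too narrow. Rpl23, a ribosomal protein gene on chr11:97777526-97782439, had 4 and 27 reads against 73 and 103. Lars2, the mitochondrial leucyl-tRNA synthetase gene on chr9:123366927-123462675, was the well-covered one, with 288 and 585 reads against 2748 and 2216 and log2 ratios of -1.50 and -1.29. A single window of 1000 bases at its end, chr9:123461927-123462926, held 50.3% and 53.8% of the class 11 reads and 66.2% and 64.6% of those of class 2. Outside that window class 11 had 109 and 83.9 CPM against 209 and 158 CPM, so the difference was not limited to it. Lars2 was also lower in class 3 against class 7 (-1.16 and -1.23) and in class 8 against class 1 (-0.87 and -0.84).

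The 10 highest spans against all other adult nuclei were Tnfsf11, Pon1, Rptn, Msr1, C1qa, Hao2, C8a, Il5ra, Clec4a4 and Abca15. Msr1 and C1qa are macrophage genes, for a scavenger receptor and a complement subunit, and Clec4a4 is a lectin receptor gene of dendritic cells. Msr1 had 16.0 and 24.9 CPM in class 11 against 1.81 and 5.44 CPM in class 2, and C1qa had 18.3 and 10.3 CPM against 7.22 and 7.86 CPM. In replicate 2 Msr1 was higher still in class 10, at 26.6 CPM, and class 8, at 26.0 CPM. The immune list had none higher against all other adult nuclei, and Cd3e was lower. Pon1, a paraoxonase gene, had 19.8 and 15.2 CPM against 7.0 and 6.45 CPM in class 2.

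The 10 lowest were Lcn2, Il17b, Wfdc18, Ccl2, Krt5, Dnd1, Slc10a6, G0s2, Nipal4 and Cmklr1. Lcn2, a secreted iron-binding lipocalin of luminal progenitors, had 4 and 9 reads in class 11, or 3.04 and 2.8 CPM, against 71.0 and 44.0 CPM in the other nuclei. Slc10a6, a steroid sulphate transporter gene, had 3.04 and 6.83 CPM against 36.3 and 33.5 CPM. Class 2 was also low, with 4.51 and 0.403 CPM over Lcn2 and 7.9 and 12.7 CPM over Slc10a6.

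**Figure D4:**
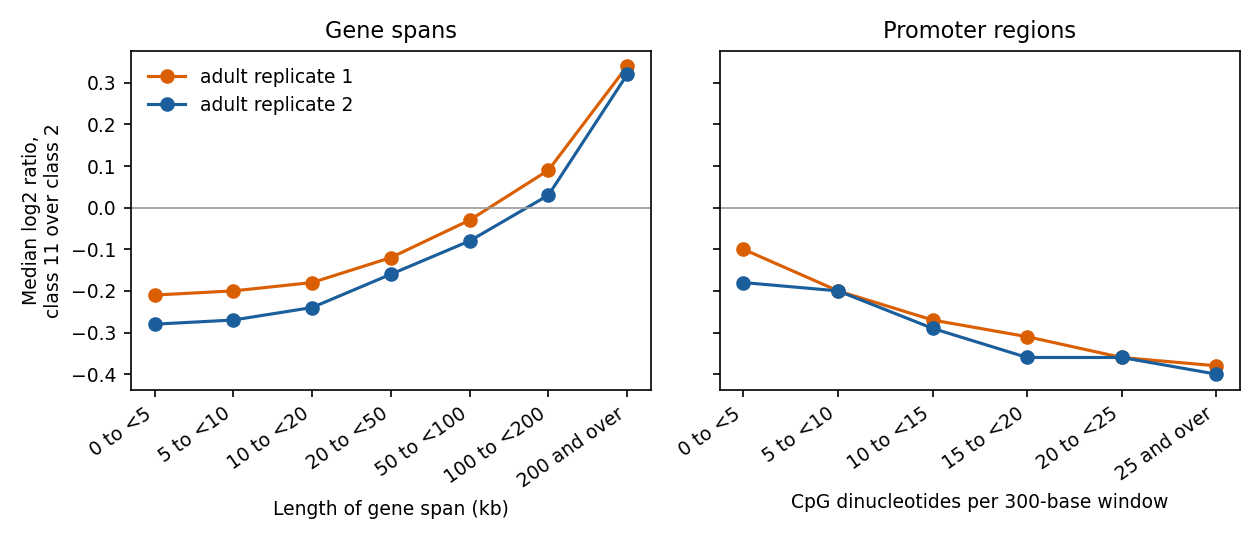
Median log2 ratio of class 11 over class 2 in each adult library, for gene spans grouped by length in kb (left) and for promoter regions grouped by CpG dinucleotides in the matched 300-base RefSeq window (right). Spans go from -0.21 and -0.28 under 5 kb to 0.34 and 0.32 at 200 kb and over, and promoters from -0.10 and -0.18 to -0.38 and -0.40.

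Promoter regions as a set lay below class 2, with median log2 ratios of -0.31 and -0.34 over the 10624 tested. Past 2-fold in both libraries, 118 were lower (1.11%) and 18 higher (0.169%), and 58.7% lay below 0 in both. The fall of the whole set sets this split: TMM scaling, which moved the median by 0.32, gave 30 lower and 91 higher. The gap was wider at CpG-rich promoters. Among the 156 windows with fewer than 5 CpG the medians were -0.10 and -0.18, with 42.3% below 0 in both libraries, and among the 3086 with 25 or more they were -0.38 and -0.40, with 66.8% below 0. Classes 3 and 8 had wider gaps than class 11, with medians of -0.42 and -0.37 against class 7 and -0.51 and -0.60 against class 1.

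At the promoters whose sequences are printed above, the lower values rested on few reads. The Cops8 region, chr1:90602805-90603804, of a gene for a COP9 signalosome subunit, had 6 and 16 class 11 reads against 97 and 96 in class 2, or 4.57 and 4.97 CPM against 21.9 and 19.3 CPM. The Rpl23 region, chr11:97781855-97782854, had 0 and 13 reads against 57 and 75. The Mllt6 region, chr11:97662519-97663518, had 3 and 30 reads against 80 and 98. In all 3, both class 11 libraries were below both class 2 libraries, but the 3 were picked for their low ratios in both. The other 2 of the 5 lowest lay near Espn and Elk4. Of the 75 lower promoters with a matched window, 61.3% held an SP/KLF string, 29.3% an ETS string and 21.3% a TEAD string, against 71.1%, 30.8% and 11.1% of the windows tested. Bnc2, a zinc finger gene with a promoter region at chr4:84674893-84675892, was the 1 higher region with enough reads to be named, at 15.2 and 15.2 CPM against 6.77 and 6.65 CPM.

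Of 13986 promoter regions tested against all other adult nuclei, 53 were higher (0.379%) and 345 lower (2.47%). Regions enter mostly through the reads of the other nuclei, so the read minimum bears on this split. TMM scaling, which moved the median by 0.25, gave 224 and 300. The highest were in Epha6, Krt4, Nxph1, Rptn and Dok6. Krt4, an epithelial keratin gene, had 26 and 50 reads in class 11, or 19.8 and 15.5 CPM, with 10.4 and 10.1 CPM in class 2 and at most 2.34 CPM in classes 1, 7 and 8. Of the 53 higher regions 16 had a matched window, with a median of 7.5 CpG against 22.0 over those tested. The lowest was Chil1, a chitinase-like gene, with no read in either class 11 library against 215 and 224 in the other nuclei. Taken against a floor of 3 reads over both libraries, that is at least 23.4-fold lower. Wfdc18, a secreted protease inhibitor gene of the luminal progenitor list, also had none, at least 14.6-fold lower. Class 2 was at or under 0.806 CPM for both.

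Distal regions told class 11 and class 2 apart only weakly. Past 2-fold in both libraries, 33 of 19210 were higher (0.172%) and 376 lower (1.96%), with medians of -0.23 and -0.29. The TMM-scaled split was 196 and 180, with a shift of 0.25. The 5 highest with enough reads were in Sp9, Cntn3 and Dnah11 and nearest to Dyrk2 and Gfra2. The region in Dnah11, an axonemal dynein gene, at chr12:118040821-118041820, had 34 and 44 reads in class 11, or 25.9 and 13.7 CPM, against 9.48 and 6.04 CPM in class 2. Across all other adult nuclei it had 4.4 and 2.24 CPM, which ranked it first among the distal regions higher in class 11. Among the lowest 5, the regions nearest to Cspg5, Rchy1, Atp6v1g3 and Tgfa each had 0 reads in replicate 1 and 6 to 29 in replicate 2.

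Against all other adult nuclei 1356 of 45632 distal regions were higher (2.97%) and 5654 lower (12.4%). The read minimum is a mean over class 11 and the other nuclei, which hold far more reads. A region read only in the other nuclei can therefore enter, while one high only in class 11 rarely can. The split is thus partly set by this minimum and is not a result about direction. The median region tested had 6.0 and 15.0 class 11 reads. With TMM scaling the split was 2064 higher and 6738 lower. Of the 5 lowest, 4 had no class 11 read. The lowest, in Ccdc141 at chr2:77166053-77167052 had 227 and 306 reads in the other nuclei, so it was at least 28.4-fold lower in class 11. Class 2 had 1.35 and 2.22 CPM there and class 7 had 39.5 and 30.0 CPM. The next, nearest to 1700021F07Rik, had 0 and 2 reads in class 11 against 264 and 380. Its ratio was 0.0194 with a 95% counting interval of 0.00235 to 0.0705, which is too narrow because both ends of a fragment are listed as separate reads. Regions nearest to Pick1, Fos and Pfn2 had no class 11 read either, at least 24.7-fold, 24.6-fold and 24.4-fold lower. The one nearest to Fos lies 55098 bases from it, while the Fos span itself had 115 and 122 CPM in class 11. Regions in Chn2 and Gucy1a2 and nearest to Rorb and Gfra2 followed Dnah11 among the highest.

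Motif scores placed class 11 beside class 2. These are the authors' deposited chromVAR deviation scores, relative values near 0 for an average nucleus, and a difference of 0.5 in the same direction in both libraries was counted. Of 427 motif columns, 388 of them distinct, none was higher (0.0%) or lower (0.0%) than in class 2. Against all other adult nuclei 43 were higher (10.1%) and 27 lower (6.32%). All 23 forkhead columns, which hold 16 distinct score columns, were among the higher, with a median difference of 1.53. Foxa1 led, with a mean score of 4.30 in replicate 1 and 4.66 in replicate 2 of class 11, against 3.70 and 4.20 in class 2, 1.88 and 2.68 in class 10, and below 0 in classes 1, 3, 6, 7 and 8. The score was above 0 in 99.0% and 99.7% of class 11 nuclei. Of the 12 AP-1 columns 11 were higher, led by Fos at 2.55 and 3.30, with a median difference of 1.57.

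The lower motifs included those of other epithelial lineages. Of the 4 basal motifs with a column 2 were lower and 1 was positive in both libraries. Among motifs of the p53 family, Trp63 stood at -1.20 and -1.20 and Trp73 at -1.34 and -1.26 in class 11, and Trp63 stood at 3.15 and 3.01 in class 1. Trp53, of the same family, was above the other adult nuclei by 0.15 and 0.30. Elf5 and Elf3, ETS motifs high in luminal progenitor classes, stood at -0.681 and -0.903 and at -0.793 and -0.954, against 1.78 and 1.69 for Elf5 in class 7. Nfic, Cebpg, Cebpb and Sox4 were the other 4 named, with differences of -1.39, -1.25, -1.14 and -1.08.

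**Figure D5:**
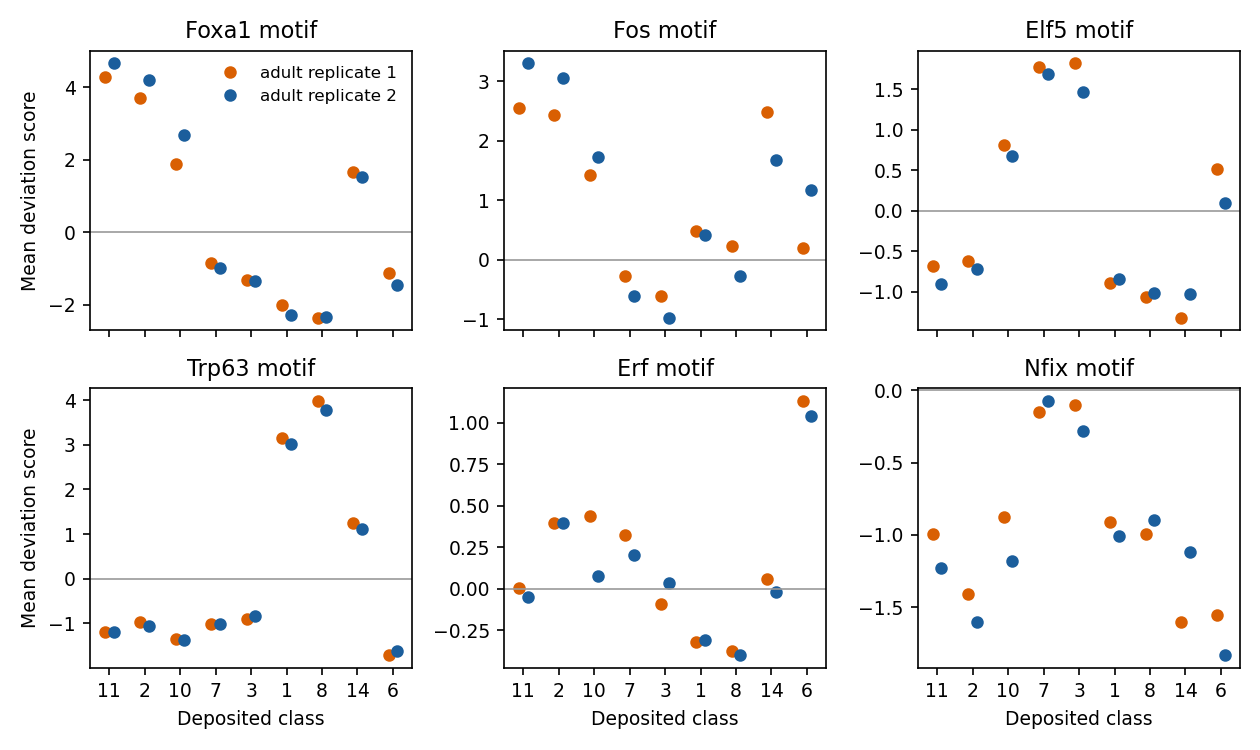
Mean deviation score over the nuclei of each adult class, by library, for 6 motifs; the line marks 0 and the vertical scale differs between panels. Class 11 lies beside class 2 for Fos, Elf5 and Trp63, above it for Foxa1 (4.30 and 4.66 against 3.70 and 4.20), below it for Erf (0.00533 and -0.0463 against 0.395 and 0.395) and above it for Nfix (-0.994 and -1.23 against -1.41 and -1.60).

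Against class 2, where no column passed 0.5 in both libraries, 343 of the 427 columns had the same sign in both. The 8 lowest were Runx1 at -0.45, Erf at -0.42, Erg at -0.41, Ets1 and Ets2 at -0.38 each, Etv4 at -0.37, and Runx2 and Elk4 at -0.36 each. The split of those 343 into higher and lower is not given here, and the median difference over all 427 columns was -0.02. All 8 listed ETS columns were below class 2 in both libraries, with a median of -0.24. Nfix was higher by 0.39 ± 0.033 (SD, n = 2), and all 4 NFI columns were positive in both. Foxa1 was higher by 0.53 ± 0.098 (SD, n = 2), with 0.60 in replicate 1 and 0.46 in replicate 2, and 22 of the 23 forkhead columns were positive in both.

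Depth moved with the Foxa1 score. The median Foxa1 score of class 11 nuclei went from 2.19 under 3000 reads to 6.0 at 10000 reads and over in replicate 1, and from 2.98 to 5.82 in replicate 2. Compared within bins of reads per nucleus, an alternative added after seeing the data, the Foxa1 difference from class 2 became 0.34 and 0.04 and that of Foxa3 0.11 and -0.03. The number of forkhead columns positive in both libraries went from 22 to 13 of 23, and the median of the 12 AP-1 columns from 0.13 to -0.11. Of the 8 ETS columns 7 stayed below class 2 in both, and all 4 NFI columns stayed above. The shares of all columns with each sign within bins are not given here. In the same comparison Nfix was higher by 0.53 and 0.54, past 0.5 in both libraries, Erf lower with -0.46 and -0.54, and Runx1 lower with -0.41 and -0.54. The Foxa1 difference from all other adult nuclei hardly moved, at 3.52 and 4.21 within bins. The motif collection behind the scores was not given in the sources used here, and motifs of 1 family share letters, so their scores are not independent.

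In the other pairs of a promoter-poor class and its partner, Erf gave -0.41 and -0.16 in class 3 against class 7 and -0.06 and -0.09 in class 8 against class 1. Other ETS motifs were also below 0 in both libraries in class 3 against class 7. Erg gave -0.45 and -0.25, Ets1 -0.46 and -0.23, Etv4 -0.37 and -0.22, and Elk4 -0.38 and -0.22. In class 8 against class 1, Erg at 0.03 and -0.05, Ets1 at 0.05 and -0.04, Etv4 at -0.06 and 0.02 and Elk4 at -0.16 and 0.02 had both signs. Runx1 gave -0.24 and -0.04, and -0.37 and -0.33. Nfix gave 0.05 and -0.20, and -0.08 and 0.11, with both signs in each pair.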

How the data were processed

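Single-nucleus ATAC-seq was analysed in 4 libraries. The authors deposited read positions per nucleus, barcode lists, promoter and distal region lists, a table with the cluster number, the read count per nucleus and chromVAR motif scores, and pooled Cicero co-accessibility scores; the tool names Cicero and chromVAR come from the deposited file names. Bowtie2, MACS2, bedtools and the build mm10 are named per the submitters' processing notes, without versions or roles. Clustering, motif collection, read shifting and duplicate removal are not given in the sources used here. The deposited counts are whole reads, and both ends of a fragment are listed as separate reads. Clusters were taken as deposited and no doublet caller was run. The labels' protocol speaks of thawed cells and the series' design text of freshly sorted ones. The Cicero gene score table was not used, since its columns name no sample.

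Reads were summed per library and class over regions (overlap of at least 1 base) and over RefSeq gene spans with 2000 bases on either side, as CPM of all reads of the class, and compared as log2 ratios with a pseudocount of 1 CPM. Features had a mean of at least 20 reads over class 11 and its comparator. Both comparators hold more reads than class 11, so features low in class 11 enter more easily than features high only there. Counted differences were 1.5-fold for spans, 2-fold for regions and 0.5 for motif scores, in the same direction in both adult libraries. The text names the 10 spans, 5 regions and 8 motifs at each end, with at least 50 reads in each library, passing over predicted genes and spans that overlap one already named; some items that meet this rule are not reported here. Spreads are over 2 libraries. The members and gene lists were chosen with earlier results of these data known. Alternatives were other pseudocounts, minimums and scalings, depth windows and leaving out a library. The counting was tested on simulated data, where falls in distal and promoter regions passed the rule less often than rises of equal fold. Figures were drawn with matplotlib 3.10.9, and values were computed in Python 3.11.15 using scipy 1.17.1, pandas 2.3.3 and numpy 2.4.6.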

Additional observations from a re-analysis of the deposited data

Results flagged for a closer look

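For 6 motifs, both adult libraries placed class 11 above class 2 while both placed class 3 below class 7 or class 8 below class 1; the difference between the pairs was not tested. Foxa1 was higher by 0.53 in class 11, with -0.47 and -0.37 in class 3 minus class 7 and -0.37 and -0.06 in class 8 minus class 1. Within bins of reads per nucleus the Foxa1 values were 0.34 and 0.04 in class 11, -0.28 and -0.27 in class 3, and -0.09 and 0.16 in class 8. Within the same bins Foxa3 (-0.09 and 0.13), Foxj3 (-0.12 and 0.15) and Foxn3 (-0.05 and 0.13) also had both signs in class 8 minus class 1, and Foxa3 had 0.11 and -0.03 in class 11 minus class 2. Without bins, Foxa3 gave 0.28 in class 11, against means of -0.38 and -0.21 in the other pairs. Foxj3 gave 0.29, against -0.33 and -0.20, and Foxn3 gave 0.33, against -0.30 and -0.16. Lmx1b gave 0.35 in class 11 and -0.16 in class 8 minus class 1, and Vax2 gave 0.31 and -0.06 in class 3 minus class 7.

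Opposite signs were also seen, untested, at 3 features of class 8 over class 1, where the median over all spans tested was -0.21 and -0.35 and that over all promoters -0.51 and -0.60. The span of Tshz3, a zinc finger gene, had a log2 ratio of 1.52 in class 11 over class 2, with -2.20 and -0.37 in class 8 over class 1. The span of Wnk3, a kinase gene, had 1.49, with -0.02 and -0.05. The Bnc2 promoter had 1.07, with -0.35 and -0.63.

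The fetal libraries, which no comparison used, held 7 nuclei of class 11. Their Foxa1 scores ran from -0.144 to 6.95 with a median of 4.92, and their promoter shares from 17.4% to 26.6%, at 2211 to 8451 reads.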

How the results depend on the processing

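No paired analysis was possible because no result comes from a test to which a block could be added; differences between classes were already taken within each library. Of 77 alternative values for the counts and shares, 45 stayed within their limits and 32 moved. Only the shares could be labelled reversed, and 0 were. A count was compared by its total and not by its split into higher and lower. That split turned for promoters against class 2 with TMM scaling. Named spans stayed in 257 of 282 and named motifs in 129 of 160. Those tallies include leaving out a library, where all 79 values stayed each time. That could not fail, since the limit was the SD of the same 2 libraries. The cause of the moves was not tested. In nuclei with 3000 to 10000 reads the promoter gap was -5.37 points; from summed reads the distal gap was -2.8. Without a minimum, 1921 spans passed against class 2 in place of 1211. Distal regions against class 2 (409) became 237 with a pseudocount of 2 CPM, 98 with a minimum of 50 reads and 4248 with none; against all other adult nuclei (7010) they became 1895 with a minimum of 50, 15044 with none and 4488 at 3000 to 10000 reads. Promoters against class 2 (136) became 82, 64 and 463 under the same pseudocount and minimums and 356 at 3000 to 10000 reads, where 351 were lower; against the others (398) they became 250, 156, 708 and 672. CPM of the reads in features tested gave 97 promoters higher and 28 lower than in class 2, and 235 and 159 distal regions. In 1 library alone, without adult replicate 1 or 2, there is no second library to match, and counts were 3388 to 3832 and 3502 to 4279 spans, 2392 to 2635 and 12393 to 16128 distal regions, and 861 to 1297 and 1428 to 1939 promoters, against class 2 and the others in turn. Motifs past 0.5 against class 2 were 0 in both libraries, 1 to 2 in 1 library, and 1, Nfix, within bins of reads per nucleus; against the others the range was 62 to 101. Depth limits single regions: the median distal region tested had 13.0 and 28.0 class 11 reads against class 2, and 6.0 and 15.0 against the others.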
